A study of Mus musculus with 6 samples.

Results

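The genes of the MLL3 and MLL4 histone methyltransferases, of their relatives and of their shared subunits were examined in mouse mammary stem cells labelled Mll3-null. The set holds 10 genes: the 6 methyltransferases Kmt2c (MLL3), Kmt2d (MLL4), Kmt2a, Kmt2b, Setd1a and Setd1b, the MLL3 and MLL4 partners Kdm6a, Paxip1 and Ncoa6, and the core subunit Dpy30. They were chosen by name, with earlier results of these data known, and all 10 were among the 22180 genes with a value on the arrays. Each gene is represented by the probe set listed with that symbol alone, and Paxip1, which has 2 such probe sets, by the brighter one. Mll3-null cells, from lines made by CRISPR (3 arrays), were set against wild-type cells (WT, 3 arrays), both grown as organoids, which are 3-dimensional epithelial cultures. The labels call the arrays of a group biological replicates without saying whether they stand for separate lines, clones, animals or cultures, so the p-values measure only the spread between these samples. The labels name no other allele or agent, and they give neither the strain, nor the guide, nor the part of Kmt2c that was altered.

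MLL3 and MLL4 each work inside a multi-subunit assembly of the COMPASS type, and place a single methyl group on lysine 4 of histone H3 at enhancers. MLL1 and MLL2 (Kmt2a and Kmt2b) act mostly at the promoters of developmental genes, while SETD1A and SETD1B place the trimethyl mark at active promoters. A core module that includes WDR5, RBBP5, ASH2L and DPY30 is common to all of them, while UTX (Kdm6a), PTIP (Paxip1) and NCOA6 belong to the MLL3 and MLL4 forms. Because MLL3 and MLL4 are close relatives with overlapping enhancers, one question for Mll3-null cells is whether the mRNA of Kmt2d or of a partner gene is higher in them.

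None of the 10 genes passed the test. Each difference is the Mll3-null mean less the WT mean, in log2 units, from limma's moderated test, with p-values adjusted by Benjamini-Hochberg over all genes, and a gene was called at an adjusted p under 0.05. The adjusted p of the 10 genes ran from 0.84 to 0.95, and 0% of all 22180 genes were called. At an unadjusted p under 0.05 there were 0 of the 10 in either direction, against 4.93% of all genes (1093). By direction these were 2.51% of all genes on the higher side and 2.42% on the lower side. The groups did not overlap for 2 of the 10, Kdm6a and Dpy30, against 10.7% of all genes, and with so few genes the shares cannot be told apart. Of the 10, 5 had a higher and 5 a lower mean in Mll3-null cells, with a median difference of -0.01, against 0.01 over all genes.

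The arrays were not alike within the Mll3-null group. On Mll3-null replicate 3 the 6 basal markers averaged 5.83 on the log2 scale, against 9.36 in both other Mll3-null arrays and 8.74 to 9.24 in WT. Krt14, a basal keratin, was at 6.65 there, against 11.74 to 12.43 on the other 5 arrays. Myh11, of the same list, stayed between 5.08 and 5.29 on all 6 arrays. The luminal list averaged 9.53 to 10.06 in Mll3-null arrays, highest in replicate 3, and 9.15 to 9.73 in WT arrays. Its members were not alike: Elf5, Gata3, Krt8 and Krt18 were highest on Mll3-null replicate 3, while Epcam, Cd24a and Krt19 were not. Epcam had its lowest value there, 10.72, and Cd24a, at 10.70, lay below all WT arrays. Means of the fibroblast, endothelial, leukocyte and adipocyte lists lay between 3.39 and 4.51 in Mll3-null and between 3.31 and 4.40 in WT arrays, near or below the array medians (4.35 to 4.40). The 5 measured proliferation genes averaged 7.92 to 9.19 in Mll3-null and 8.52 to 9.25 in WT arrays, lowest in Mll3-null replicate 3. In such bulk RNA a different mix of cells and a different level per cell cannot be told apart. Values without that array therefore stand beside the results.

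**Figure D1:**
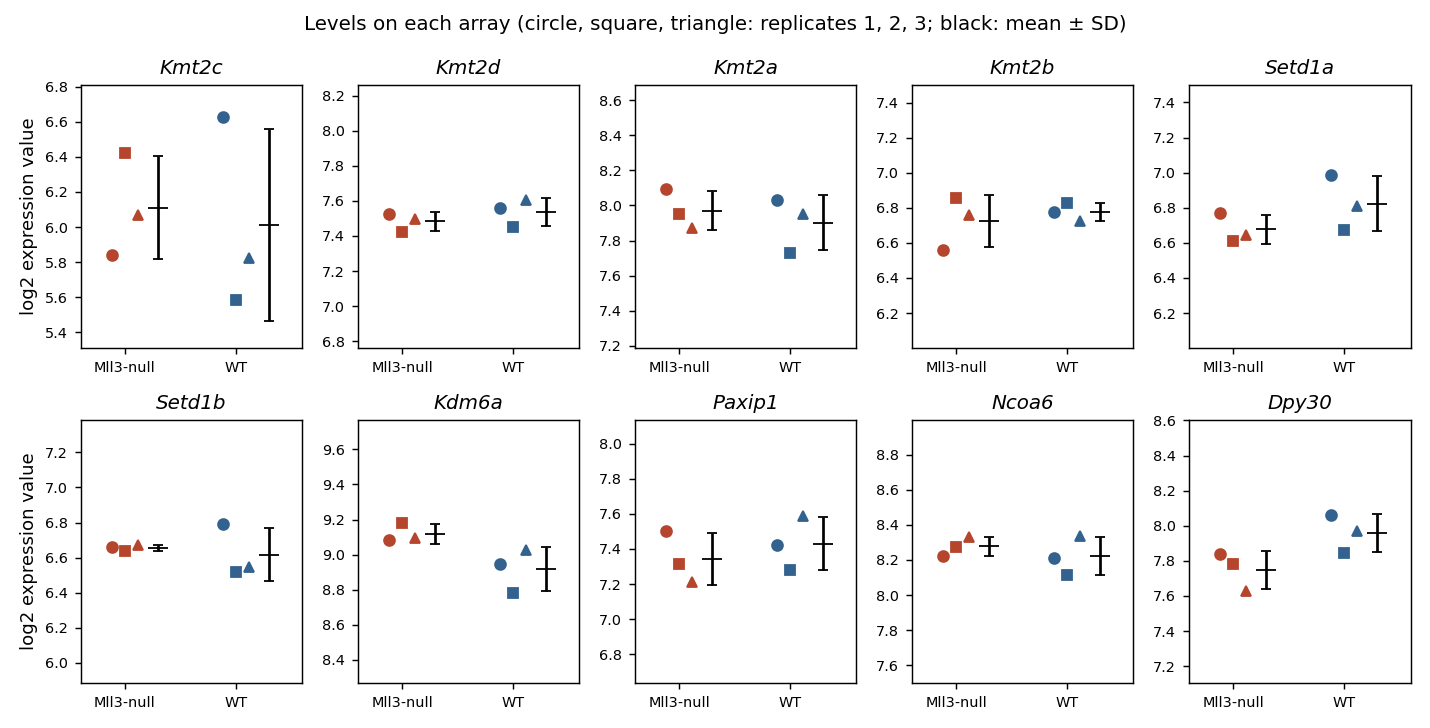
Log2 expression value (vertical axes, all of equal span) of the 10 genes on the 3 Mll3-null and 3 WT arrays; symbols mark replicates 1 to 3, and the black marks give mean ± SD. Kmt2c has the widest spread, and only for Kdm6a and Dpy30 do the groups not overlap.

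Kmt2c, the targeted gene on chromosome 5, was at 5.84, 6.42 and 6.07 on the Mll3-null arrays, against 6.63, 5.58 and 5.82 on the WT arrays (log2, replicates 1 to 3). All Mll3-null values lay inside the WT range, whose ends were WT replicates 1 and 2. The difference was 0.10 ± 0.29 (SE), or 1.07-fold, with a 95% interval from 0.66-fold to 1.74-fold (limma, adjusted p = 0.95). It was 0.12 without Mll3-null replicate 3, -0.06 without Mll3-null replicate 2 and -0.11 without WT replicate 2, so its direction rests on single arrays. The mRNA level did not separate the genotypes. CRISPR lines can keep an mRNA that no longer encodes the protein, and where the probes sit relative to the edit was not known here, so the level does not check the genotype labels.

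Kmt2c also varied most among the 10. Its values spanned 1.04 log2 units over the 6 arrays (2.06-fold), against 0.18 to 0.43 for the other 9 genes. Its within-group SD was 0.44, and 15.0% of the genes whose mean lay within 0.5 of its own had a larger one. For Kmt2d the within-group SD was 0.068, and 92.7% of genes of similar level had a larger one. Paxip1, next in spread to Kmt2c, had 0.15, larger in 58.5% of such genes.

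Kmt2d, the gene of MLL4 on chromosome 15, was at 7.53, 7.42 and 7.50 on the Mll3-null arrays, against 7.56, 7.45 and 7.61 on the WT arrays. The groups overlapped, and all 6 values lay within 0.18 log2 units of each other. The difference was -0.06 ± 0.09 (SE), or 0.96-fold, with a 95% interval from 0.83-fold to 1.11-fold (limma, adjusted p = 0.90). It was -0.06 without Mll3-null replicate 3, and over all 14 alternative settings, leaving out each array among them, the highest upper bound was 1.18-fold. A rise of Kmt2d mRNA beyond that size was therefore outside the intervals of these arrays. The question of protein amount or activity was not measured.

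Across the 6 arrays Kmt2d did not run against Kmt2c: Pearson's r was -0.01 and Spearman's rho -0.03 (n = 6 arrays of both genotypes, described with no test). Without the 2 arrays farthest from the Kmt2c median, WT replicate 1 and Mll3-null replicate 2, r was 0.30, with arrays left out by their Kmt2c value. Kmt2d spanned only 0.18 log2 units, and the Kmt2c mRNA level does not check the genotype. These correlations therefore cannot decide whether Kmt2d responds to a loss of MLL3. The array with the least Kmt2c, WT replicate 2, had the next to lowest Kmt2d value, 7.45, and the lowest Kmt2d value, 7.42, was on Mll3-null replicate 2, where Kmt2c was at 6.42.

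**Figure D2:**
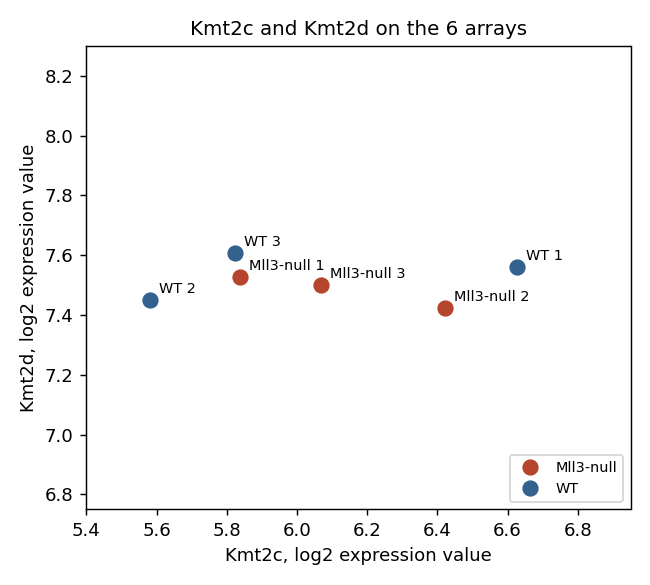
Kmt2d (vertical axis) against Kmt2c (horizontal axis), both as log2 expression values over equal spans, on the 3 Mll3-null and 3 WT arrays. Kmt2c runs from 5.58 to 6.63 while Kmt2d stays between 7.42 and 7.61, and the genotypes are intermixed.

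The sequences before the start sites of Kmt2c, Kmt2d and Kdm6a are shown because the comparison turns on the targeted gene, its paralogue and the partner whose Mll3-null arrays all lay above WT. Each is the 250 bases before a RefSeq transcript start in GRCm38.p6, written along the gene's strand. RefSeq starts were found for 8 of the 10 genes (Kmt2b and Setd1b were not matched). Capitals mark ACGTG and GCGTG, the core letters bound by hypoxia-inducible factors, searched on both strands; CACGTG reads as ACGTG on both strands.
Kmt2c, chr5:25498784-25499033, minus strand: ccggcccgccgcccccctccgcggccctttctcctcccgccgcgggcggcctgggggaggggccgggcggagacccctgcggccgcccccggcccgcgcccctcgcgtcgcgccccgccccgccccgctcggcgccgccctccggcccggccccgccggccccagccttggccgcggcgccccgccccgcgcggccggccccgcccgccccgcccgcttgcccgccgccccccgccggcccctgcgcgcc
Kmt2d, chr15:98871206-98871455, minus strand: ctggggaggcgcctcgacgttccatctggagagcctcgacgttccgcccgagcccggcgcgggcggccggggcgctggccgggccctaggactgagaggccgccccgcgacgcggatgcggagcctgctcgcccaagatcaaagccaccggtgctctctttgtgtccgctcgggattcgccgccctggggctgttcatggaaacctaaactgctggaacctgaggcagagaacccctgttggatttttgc
Kdm6a, chrX:18162325-18162574, plus strand: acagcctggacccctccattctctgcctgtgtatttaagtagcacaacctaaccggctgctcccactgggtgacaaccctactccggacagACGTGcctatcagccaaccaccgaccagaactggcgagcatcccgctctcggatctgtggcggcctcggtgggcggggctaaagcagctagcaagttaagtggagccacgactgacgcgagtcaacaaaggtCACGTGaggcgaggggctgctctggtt
The Kmt2c window was 91.6% G and C with 48 CG pairs, the Kmt2d window 67.6% with 26 and the Kdm6a window 59.6% with 15, against medians of 52.4% and 6 over the 32851 windows of all genes. The letters were found in the Kdm6a window and in no window of the other 7 matched genes (Dpy30 has 4 starts), while 38.6% of all windows hold them. The Kmt2d and Kdm6a starts shown lie 2872 and 1713 bases inside the outermost annotated ends of their genes, so further starts are possible. A match in these letters is a description and no evidence of binding.

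The promoter-directed relatives did not pass the test either. Kmt2a, the MLL1 gene, was at 8.09, 7.95 and 7.87 on the Mll3-null arrays, against 8.03, 7.73 and 7.95 on the WT arrays. WT replicate 2 was the lowest array and the groups overlapped, with a difference of 0.07 ± 0.11 (log2, SE) and a 95% interval from 0.87-fold to 1.27-fold. Without Mll3-null replicate 3 it was 0.12, and without WT replicate 2 it was -0.02. Kmt2b, the MLL2 gene, was at 6.56, 6.86 and 6.76 on the Mll3-null arrays, against 6.78, 6.83 and 6.72 on the WT arrays. Here Mll3-null replicate 1 was the lowest array. The difference was -0.05 ± 0.10 (0.81-fold to 1.15-fold), -0.07 without Mll3-null replicate 3. Leaving out Mll3-null replicate 1 instead gave 0.03.

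Setd1a, a trimethylating enzyme gene on chromosome 7, was at 6.77, 6.61 and 6.64 on the Mll3-null arrays, against 6.99, 6.68 and 6.81 on the WT arrays. The groups overlapped through Mll3-null replicate 1 and WT replicate 2. The difference was -0.15 ± 0.11 (log2, SE), with a 95% interval from 0.75-fold to 1.08-fold (limma, adjusted p = 0.84). It was -0.13 without Mll3-null replicate 3 and -0.07 without WT replicate 1, the highest array. Setd1b, its paralogue on chromosome 5, was at 6.66, 6.64 and 6.67 on the Mll3-null arrays, against 6.79, 6.52 and 6.55 on the WT arrays. The Mll3-null arrays were within 0.033 log2 units of each other and fell inside the WT range. The difference was 0.04 ± 0.10 (0.87-fold to 1.21-fold), and 0.03 without Mll3-null replicate 3.

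Among the partners of MLL3 and MLL4, Kdm6a encodes UTX, a demethylase that removes the repressive methyl marks of histone H3 lysine 27. It was at 9.08, 9.18 and 9.09 on the Mll3-null arrays, against 8.95, 8.78 and 9.03 on the WT arrays. Every Mll3-null value exceeded every WT value, narrowly so between Mll3-null replicate 1 and WT replicate 3; the groups separate in this direction for 5.44% of all genes. The difference was 0.20 ± 0.10 (log2, SE), or 1.15-fold, with a 95% interval from 0.98-fold to 1.35-fold (limma, unadjusted p = 0.082, adjusted p = 0.84; exact two-sided permutation p = 0.1, the smallest that 3 against 3 arrays allow). The difference was 0.21 without Mll3-null replicate 3 and 0.13 without WT replicate 2, the lowest array. Expressed genes of the X chromosome, where Kdm6a lies, had medians between -0.04 and 0.02 on the Mll3-null arrays and between -0.03 and 0.07 on the WT arrays (log2 deviation from each gene's 6-array mean, 234 genes with a mean over 6).

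Paxip1 encodes PTIP, which carries BRCT domains and also works in DNA repair. It was at 7.50, 7.32 and 7.21 on the Mll3-null arrays, against 7.42, 7.28 and 7.59 on the WT arrays, and the groups overlapped. The difference was -0.09 ± 0.12 (log2, SE; 0.77-fold to 1.15-fold), and -0.02 without Mll3-null replicate 3. Its second, dimmer probe set, between 3.61 and 4.18, gave 0.05 ± 0.17, the opposite direction. Ncoa6, a nuclear receptor co-activator gene, was at 8.22, 8.28 and 8.33 on the Mll3-null arrays, against 8.21, 8.12 and 8.34 on the WT arrays. Both groups ended at nearly the same highest value, and the difference was 0.06 ± 0.09 (0.89-fold to 1.21-fold). It was 0.03 without Mll3-null replicate 3 and 0.0025 without WT replicate 2.

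Dpy30, the gene of a small core subunit that stimulates methylation by all of these enzymes, was at 7.84, 7.78 and 7.63 on the Mll3-null arrays, against 8.06, 7.85 and 7.97 on the WT arrays. Every Mll3-null value was below every WT value, with Mll3-null replicate 1 and WT replicate 2 nearly level; the groups separate in this direction for 5.31% of all genes. The difference was -0.21 ± 0.10 (log2, SE), or 0.87-fold, with a 95% interval from 0.73-fold to 1.03-fold (limma, unadjusted p = 0.083, adjusted p = 0.84; exact permutation p = 0.1). It was -0.15 without Mll3-null replicate 3, the array where Dpy30, the basal markers and the proliferation genes were all lowest, and whose part in the result was not tested further. Without WT replicate 1, the highest array, it was -0.16.

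**Figure D3:**
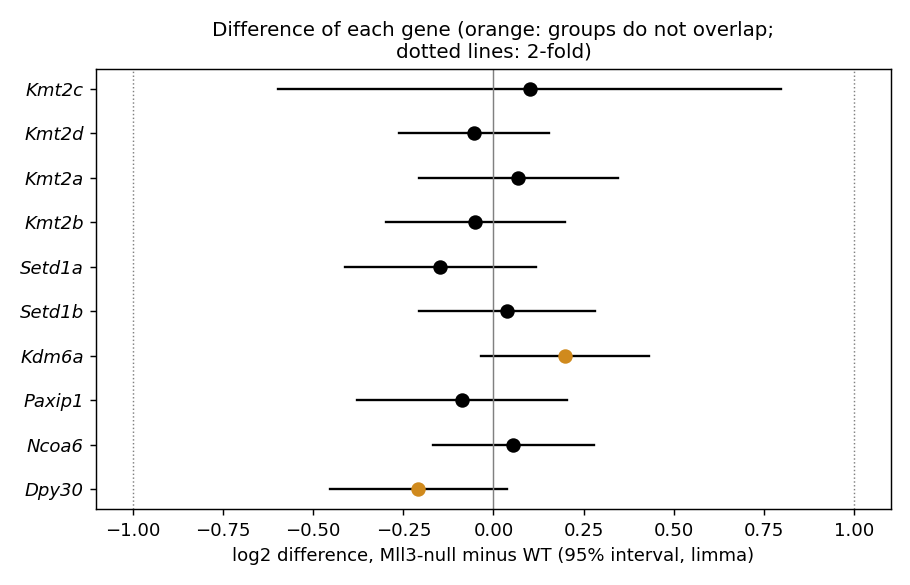
Difference of each of the 10 genes (Mll3-null minus WT, log2, horizontal axis) with its 95% interval from limma; orange points mark genes whose groups do not overlap and dotted lines mark 2-fold. Every interval includes 0 and stays within 2-fold, and that of Kmt2c, from -0.60 to 0.80, is the widest.

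The intervals bound the size of change that these 6 arrays allow. All 10 intervals stayed within 2-fold in both directions, as did 91.6% of those of all genes. Within 1.5-fold were 9 of 10, against 16848 of 22180 over all genes, and with so few genes the shares cannot be told apart. The exception was Kmt2c. Without Mll3-null replicate 1 its upper bound was 2.03-fold. For the other 9 genes the upper bounds lay between 1.03-fold and 1.35-fold and the lower bounds between 0.73-fold and 0.98-fold. The median absolute difference of the 10 was 0.08, against 0.10 over all genes, and their median within-group SD was 0.11, against 0.16. Values on a common scale across arrays cannot show a change in total RNA per cell.

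By array, the lowest values lay on WT replicate 2 and the highest on WT replicate 1. On WT replicate 2 there were 9 of 10 below their 6-array mean (Kmt2b was the exception), and 5 of the 10 had their lowest value there. On WT replicate 1 there were 8 above it, and 4 had their highest value there. The mean deviation of the 10 was -0.01, 0.03 and -0.04 on the Mll3-null arrays, against 0.13, -0.14 and 0.02 on the WT arrays (log2, replicates 1 to 3). The spread between WT arrays was thus wider than between Mll3-null arrays and enclosed them. Medians of expressed genes on the chromosomes of the 10 stayed between -0.04 and 0.07 on every array.

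**Figure D4:**
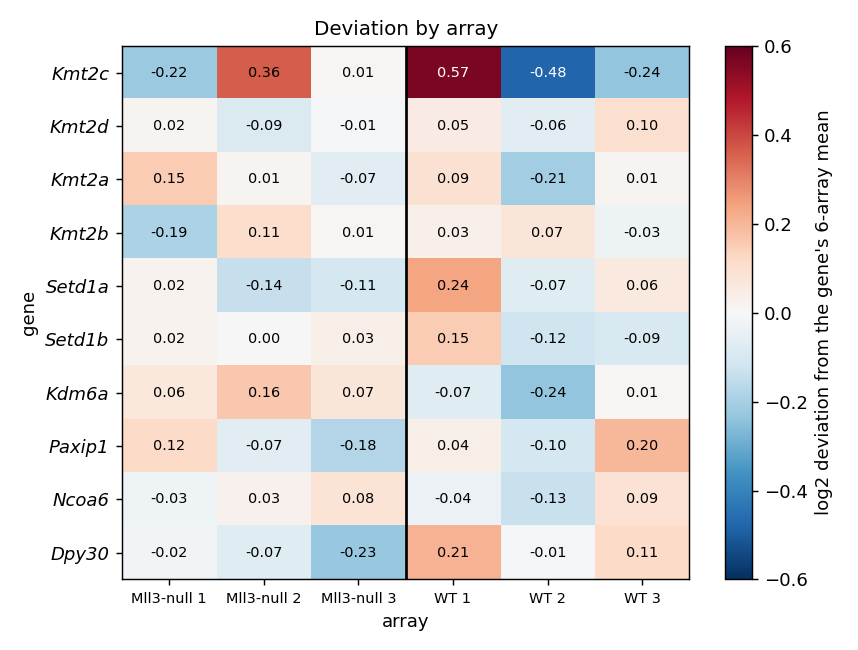
Log2 deviation of each gene (rows) from its own 6-array mean on each array (columns, Mll3-null left and WT right of the line). WT replicate 2 is blue for 9 of the 10 genes, and the widest deviations, 0.57 and -0.48, are those of Kmt2c on WT replicates 1 and 2.

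Between genes, the 45 pairwise correlations over the 6 arrays ran from -0.63 (Kmt2a with Kmt2b) to 0.87 (Setd1a with Dpy30), with a median of 0.24. The pair of Kmt2c and Setd1b, both on chromosome 5, had r = 0.83 and rho = 0.83. Paxip1, also on chromosome 5, had r = -0.11 with Kmt2c and -0.05 with Setd1b. The points share arrays and scaling. Among 8323 expressed genes, 25 had r over 0.9 with Kmt2c and 87 with Kmt2d. The genes closest to Kmt2c were Rpl22 (r = 0.98), Rps25 (0.96) and Nanp (0.96). Those closest to Kmt2d were Pnn (0.99), Wsb1 (0.98) and Ttc21b (0.98). With 6 arrays and 8323 genes screened, unrelated genes can also reach such values. The counts and names are a description, and shared regulation was not tested.

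Other genes of the same machinery, and of those that oppose or read its marks, were described from 5 lists with 55 measured genes of 59. None passed the test in either direction, and 29 had a higher and 26 a lower mean in Mll3-null cells (median difference 0.02). The groups did not overlap for 4 of the 55, against 10.7% of all genes. The 11 other COMPASS subunits had a median of -0.03, with 3 higher and 8 lower. Within this list the scaffold gene Wdr5 differed by -0.11 ± 0.11, Ash2l by -0.04 ± 0.13 and Men1, which encodes the MLL1 and MLL2 cofactor menin, by -0.01 ± 0.13 (log2, SE; these 3 named after their values were seen). Without Mll3-null replicate 3 these were -0.08, -0.15 and 0.12, which turned the direction of Men1. Rbbp5, a core subunit gene, was at 8.03, 8.21 and 8.53 on the Mll3-null arrays, against 8.04, 7.92 and 8.02 on the WT arrays. Mll3-null replicate 1 lay inside the WT range and replicate 3 far above it (difference 0.27 ± 0.14, and 0.13 without Mll3-null replicate 3). Pagr1a, the gene of the PTIP-associated subunit PA1, differed by -0.20 ± 0.12 (-0.16 without that array) at a dim level of 3.58 to 4.02.

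Among 5 demethylases of histone H3 lysine 4, which remove the marks that these enzymes place, Kdm5b was at 9.21, 9.63 and 9.69 on the Mll3-null arrays, against 8.998, 9.16 and 9.19 on the WT arrays. Every Mll3-null value exceeded every WT value, that of Mll3-null replicate 1 barely. Its difference of 0.39 ± 0.15 (log2, SE; limma, unadjusted p = 0.034, adjusted p = 0.84; exact permutation p = 0.1) was the only one of the 55 with an unadjusted p under 0.05, and it is on chromosome 1. Without Mll3-null replicate 3 it was 0.30. Kdm1b differed by -0.23 ± 0.10, and by -0.18 without that array. In the Polycomb list (12 genes, 7 higher and 5 lower, median 0.06), which holds genes of Polycomb repressive complex 2, the writer of the opposing mark on lysine 27, and the demethylase gene Kdm6b, Suz12 differed by 0.27 ± 0.13 (0.19 without Mll3-null replicate 3) and Mtf2 by -0.22 ± 0.10 (-0.20 without it). The 11 enhancer acetyltransferases and readers had a median of 0.06, with Ncoa2 at 0.52 ± 0.26 (0.24 without Mll3-null replicate 3) and Ncoa1 at 0.28 ± 0.24 (0.06 without it). The 16 other lysine methyltransferases had a median of 0.04, with Smyd3 at 0.36 ± 0.17 (0.24 without Mll3-null replicate 3). Dot1l, the lysine 79 enzyme gene, was at -0.19 ± 0.10 (-0.18 without that array), and its highest array was WT replicate 1. Dot1l lies on chromosome 10, whose expressed genes had a median deviation of 0.23 on WT replicate 1, against -0.07 to 0.01 on the other arrays. The part of that chromosome in the Dot1l difference was not tested. No gene of these lists had an adjusted p under 0.84.

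**Figure D5:**
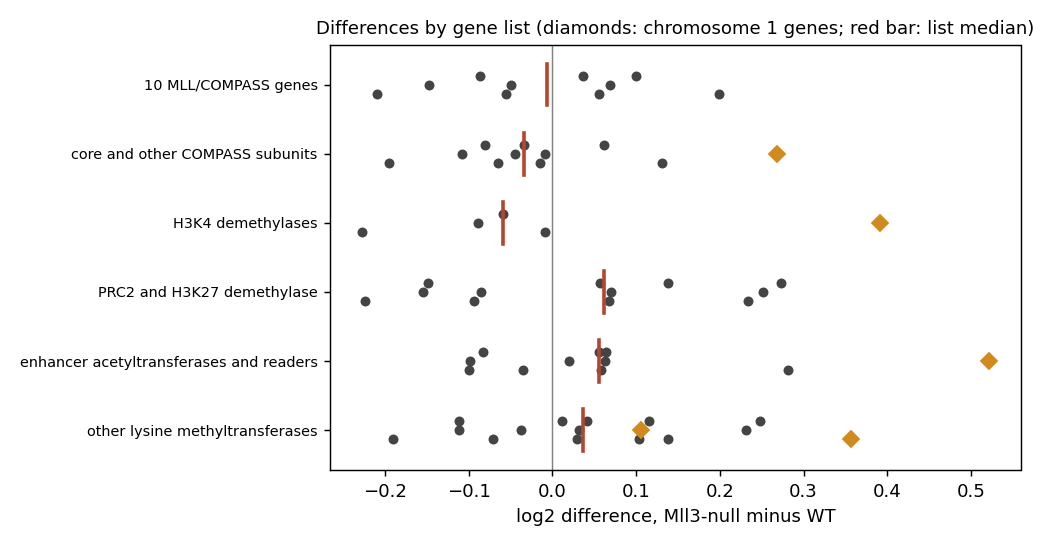
Difference of each gene (Mll3-null minus WT, log2, horizontal axis) in the 10-gene set and in 5 lists of related chromatin genes; red bars mark list medians and orange diamonds genes on chromosome 1. The point farthest right in each of the demethylase, acetyltransferase and reader, other methyltransferase and COMPASS subunit lists is a chromosome 1 gene.

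The genes of largest positive difference in 4 of the 5 lists lie on chromosome 1. There are 5 such genes, Rbbp5, Kdm5b, Ncoa2, Smyd2 and Smyd3, with a median difference of 0.36, all with a higher mean, against -0.01 for the 50 others (24 higher and 26 lower). Without Mll3-null replicate 3 the difference of Smyd2 was -0.16, the opposite direction, and the other 4 stayed higher. Expressed chromosome 1 genes as a whole had a median difference of 0.15 (510 genes), and 79.2% of them had a higher mean in Mll3-null cells. Over all 8752 expressed genes the median difference was -0.02 and 44.9% had a higher mean. Array medians of the chromosome 1 genes were -0.11, 0.08 and 0.28 on Mll3-null replicates 1 to 3, against -0.11, -0.11 and -0.03 on WT replicates 1 to 3. For all 5 the highest array was Mll3-null replicate 3. Whether the values of Rbbp5 and Kdm5b belong to the genotype or to that chromosome was not tested. None of the 10 genes of the set lies on chromosome 1.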

How the data were processed

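RNA of 3 Mll3-null and 3 WT samples was measured on single-channel Affymetrix arrays. The deposited values are log2 expression summaries of 41345 probe sets, made by the authors with Affymetrix Expression Console per the submitters' processing notes. Its version, the summary method, the scaling between arrays and the build are not stated in the sources used here. The log2 unit was read from the range (1.72 to 13.56) and near-equal quartiles. No detection values were used and dim genes were kept; precision is limited by the number of arrays.

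The platform annotation gave 23521 probe sets 1 symbol, 1814 several and 16010 none. The probe set of highest mean stood for a gene. Chromosomes came through gene identifiers (99.2% matched) from GRCm38.p6. limma 3.58.1 in R 4.3.3 was fitted to all genes and all 6 arrays with genotype as the only term, two-sided, and tested on simulated data. Genes with a mean over 6 were called expressed.

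The genes and lists were chosen with earlier results of these data known. The other named genes were the 2 of smallest p in each list and the 3 of highest correlation with Kmt2c and with Kmt2d, leaving out predicted genes, small RNAs and pseudogenes; names outside this rule are marked or follow from a count. List genes without a probe set of that symbol alone are not analysed here.

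Equal replicate numbers were not used as pairs: the correlation of deviations from the group means was 0.03, 0.09 and 0.46 for numbers 1 to 3. No 2 arrays held identical values (r = 0.969 to 0.990 across probe sets). Alternatives varied the spread model, array weights, dim-gene filter, scaling, probe set rule and block, and left out each array.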

Additional observations from a re-analysis of the deposited data

How the results depend on the processing

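Over 14 alternative settings, 0 genes passed the threshold in each, none of the 10 genes among them. Nor did any of the 55 related ones, which were not counted in the fit of all probe sets. The smallest adjusted p of the 10 under any setting was 0.43, for Kdm6a with array weights (limma, unadjusted p = 0.041). That fit gave Mll3-null replicate 2, the highest array for Kdm6a, a weight of 2.75, against 0.52 to 1.22 for the other arrays. Under it 2504 of 22180 genes had an unadjusted p under 0.05, against 1093 in the main fit. Of 140 repeats over the 10 genes, 134 kept the direction and 6 reversed, in 4 genes. Part of the 134 could not reverse. The spread model, the dim-gene filter, the fit of all probe sets and the block leave each difference as it was. Averaging probe sets does so too for genes with 1 probe set. The count therefore does not measure how stable the directions are. Kmt2c was -0.06 without Mll3-null replicate 2 and -0.11 without WT replicate 2. Without WT replicate 2, Kmt2a was -0.019 and Setd1b -0.013. Kmt2b was 0.032 without Mll3-null replicate 1 and 0.023 with array weights. Leaving out single arrays gave ranges of -0.11 to 0.41 for Kmt2c, -0.10 to -0.02 for Kmt2d, -0.019 to 0.13 for Kmt2a, -0.12 to 0.032 for Kmt2b, -0.013 to 0.12 for Setd1b, -0.22 to -0.07 for Setd1a, -0.17 to -0.009 for Paxip1, 0.0025 to 0.11 for Ncoa6, 0.13 to 0.25 for Kdm6a and -0.27 to -0.15 for Dpy30. The upper bound for Kmt2c was highest without Mll3-null replicate 1, at 2.03-fold.

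Genes at an unadjusted p under 0.05 numbered 1093 of 22180, 2504 with array weights, 721 of 14720 with a mean over 4 and 2075 of 41345 over all probe sets, and from 716 (without Mll3-null replicate 2) to 2742 (without Mll3-null replicate 1). With the replicate block there were 0 called and 1290 at that level, with Kdm6a at 0.20 and Dpy30 at -0.21. The numbers share no stated source, and not every array correlated best with its own number. Dim probe sets, such as the second one of Paxip1, are limited by signal, and the cause of the reversals was not tested.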
